A study of Homo sapiens with 18 samples.

Results

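Imprinted genes and their control regions were examined as a list of 36 genes, known to be expressed mainly from the copy of 1 parent in at least some tissues. Their members were taken by name, and the methylation of each was read from all CpGs with a coverage of at least 10 reads within 2 kb either side of the 5′ end of the gene on GRCh37. Each of the 36 genes matched 1 annotated gene, of 64449 on chromosomes 1 to 22, X and Y. A window was classed where at least 5 such CpGs were present, which held for 31 genes in all 3 cell lines. Because PEG3 and ZIM2, PEG10 and SGCE, and ZNF597 and NAA60 share most or all of a window, the 36 genes stand for 33 distinct windows.

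DNA of 3 untreated cell lines was measured in 18 samples. HCT15 is a colorectal carcinoma line, and DU145 and PC3 are prostate carcinoma lines. Each line was measured once by RRBS, which sequences bisulfite-treated DNA near restriction sites and counts methylated and unmethylated reads per CpG, and once with each of 5 kits for MBD-seq (MethylMagnet, MethylCollector, MethylCollector Ultra, MethylCap and MethylMiner), which capture methylated fragments with a methyl-CpG binding domain. A cell line was therefore represented by 1 RRBS library, so that no difference between lines has a replicate check, and the 3 lines were the replicates of a kit. The RRBS files held between 2922644 and 3074978 CpGs with a median coverage of 18 to 24 reads, and the MBD-seq libraries held between 10040 and 7344098 fragments. The PC3 RRBS file held under 100 CpGs on each of chromosomes 22, X and Y, which carry no member.

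At an imprinted locus, a control region is methylated on the copy from 1 parent only, from the germ cells onwards, so that a normal cell is methylated on 1 of its 2 copies and a bisulfite assay reads an intermediate level. Most control regions are marked on the maternal copy, often at the promoter of a paternally expressed gene or antisense RNA, while those of H19 and MEG3 are marked on the paternal copy. In tumour cells such marks can be lost or can spread to both copies, and copy numbers of chromosomes can change. In RRBS data of a cell line, an intermediate value from 1 methylated copy in each cell cannot be told apart from a mixture of methylated and unmethylated cells.

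Stretches of 6 control regions are shown because in each of them at least 1 cell line read apart from another. They are the parts of each region, outside every annotated exon, that hold the most CpGs covered by at least 10 reads in all 3 lines. All are written 5′ to 3′ on the plus strand of GRCh37, with the measured CpGs in capitals. They lie at chr11:2021916-2022065 within the annotated span of H19, chr11:2721566-2721715 in an intron of KCNQ1 beside the start of KCNQ1OT1, chr19:57352100-57352199 outside any gene beside the start of PEG3, chr6:144329584-144329733 in an intron of PLAGL1, chr7:50849661-50849810 in an intron of GRB10 and chr20:57464711-57464860 in an intron of GNAS.
H19: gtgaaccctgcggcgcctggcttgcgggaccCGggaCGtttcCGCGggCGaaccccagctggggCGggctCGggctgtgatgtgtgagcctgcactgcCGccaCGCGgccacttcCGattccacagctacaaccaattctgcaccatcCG
KCNQ1OT1: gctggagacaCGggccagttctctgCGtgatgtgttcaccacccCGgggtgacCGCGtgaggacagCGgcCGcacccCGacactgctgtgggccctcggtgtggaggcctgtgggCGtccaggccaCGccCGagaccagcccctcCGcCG
PEG3: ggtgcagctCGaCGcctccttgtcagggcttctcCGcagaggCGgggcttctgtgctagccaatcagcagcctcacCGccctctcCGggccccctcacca
PLAGL1: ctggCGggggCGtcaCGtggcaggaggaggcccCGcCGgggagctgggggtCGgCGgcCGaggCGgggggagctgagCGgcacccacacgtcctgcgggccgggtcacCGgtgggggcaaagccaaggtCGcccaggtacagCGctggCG
GRB10: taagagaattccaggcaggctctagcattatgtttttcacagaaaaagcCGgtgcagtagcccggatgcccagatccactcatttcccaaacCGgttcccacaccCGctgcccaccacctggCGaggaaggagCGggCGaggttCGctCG
GNAS: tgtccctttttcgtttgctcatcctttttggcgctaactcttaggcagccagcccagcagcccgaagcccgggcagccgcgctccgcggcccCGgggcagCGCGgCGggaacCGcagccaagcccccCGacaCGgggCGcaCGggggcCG

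In the KCNQ1OT1 stretch, the 13 CpGs averaged 46.0% ± 21.4 (SD over CpGs) in HCT15, 96.7% ± 6.0 in DU145 and 47.0% ± 28.5 in PC3. The 6 CpGs of the PEG3 stretch averaged 95.5% ± 4.8 in HCT15, 53.8% ± 24.7 in DU145 and 58.4% ± 17.1 in PC3. The 10 CpGs of the GNAS stretch read 54.3% ± 11.3, 74.2% ± 6.4 and 59.5% ± 9.1 in HCT15, DU145 and PC3. Thus the line that departed from an intermediate level was DU145 at KCNQ1OT1 and HCT15 at PEG3, while in the GNAS stretch DU145, with CpGs from 68.4% to 87.2%, averaged above the other lines. The 8 CpGs of the GRB10 stretch averaged 59.0%, 94.4% and 56.7%, those of PLAGL1 (14 CpGs) 35.9%, 14.2% and 13.4%, and those of H19 (12 CpGs) 41.0%, 13.9% and 55.4%, in the same order of lines. Median coverage in the 6 stretches ranged from 19 to 170.5 reads. CpGs on 1 RRBS fragment are read by the same reads and are not independent.

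Over the windows of all members, HCT15 had the fewest intermediate, here 30 to 70% on average, and PC3 the most. In HCT15, 10 of the 31 classed members were low (under 30%), 6 intermediate and 15 high (above 70%). In DU145, 10 of 32 were low, 10 intermediate and 12 high, and in PC3 the numbers were 13, 14 and 8 of 35. Among all annotated gene windows on chromosomes 1 to 21, 41.2% were low, 18.4% intermediate and 40.4% high in HCT15. The background was 41.5%, 19.5% and 39.1% in DU145, and 45.0%, 24.8% and 30.2% in PC3. The share intermediate among members was thus 19.4% in HCT15, close to the background, 31.2% in DU145 and 40% in PC3. Genes that share a window are counted separately here: the 10 in DU145 include both PEG3 and ZIM2 and both PEG10 and SGCE. Over protein-coding genes alone, 18.5%, 23.3% and 22.1% of windows were intermediate in HCT15, DU145 and PC3. The median window mean of the members was 69.3%, 52.5% and 42.1%, against 47.5%, 42.8% and 36.6% over all windows.

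A window can be intermediate because its CpGs are intermediate or because methylated and unmethylated CpGs lie side by side. Of all CpGs in the classed member windows, 14.1%, 20.8% and 24.2% were themselves between 30 and 70% in HCT15, DU145 and PC3, against 15.9%, 17.2% and 17.5% of the CpGs in all gene windows. H19, SLC22A18 and KCNK9 were intermediate in all 3 lines, which held for 6.94% of all windows, and each mixed both kinds of CpG. In HCT15, for instance, KCNK9, a potassium channel gene, averaged 68.2% with 30 of its 118 CpGs at most 20% methylated, 10 intermediate and 78 at least 80% methylated. At the limits of the classes, H19 in DU145 (68.9%) and ZNF597 in HCT15 (69.3%) lay just inside intermediate, and MAGEL2 in PC3 (28.6%), DDC in PC3 (71.4%) and WT1 in DU145 (71.5%) just outside.

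**Figure D1:**
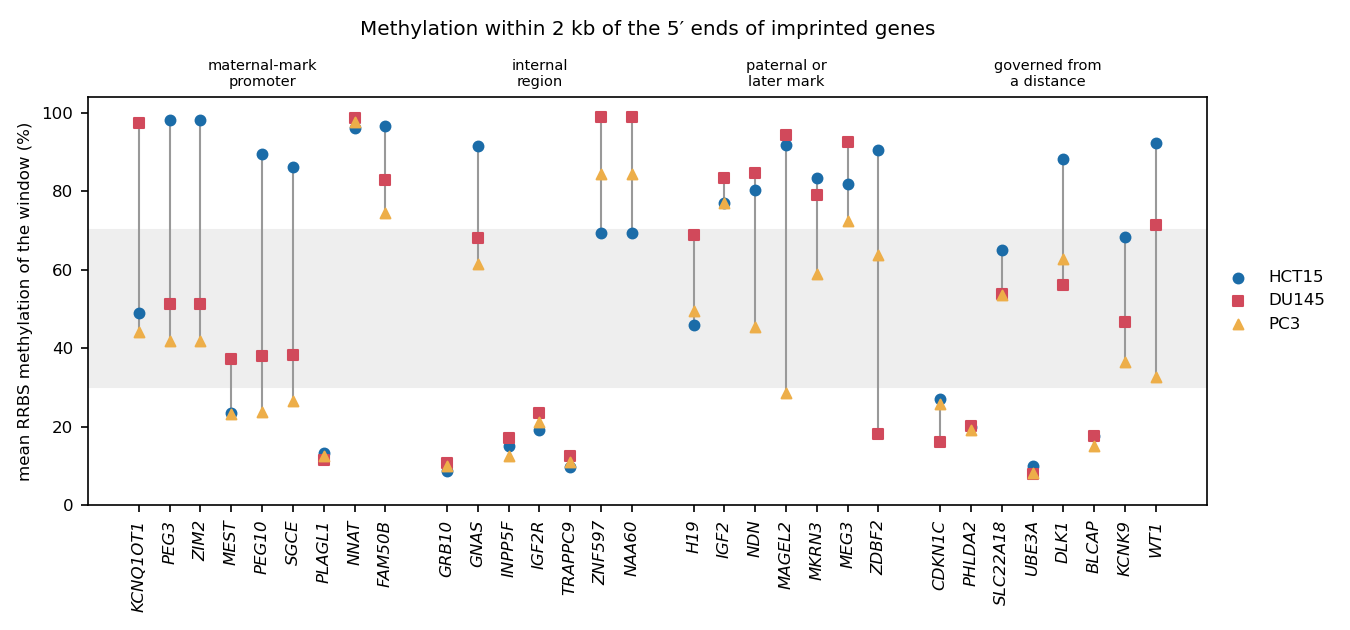
Mean RRBS methylation (%) of CpGs with coverage of at least 10 within 2 kb of the 5′ end, for the 31 imprinted genes classed in all 3 cell lines, grouped by where their parental mark is known to lie. Each point is 1 library, the grey line joins the 3 lines of a gene and the grey band marks 30 to 70%: 14 genes span over 25 points between lines, among them the 3 pairs of genes that share a window.

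The methylation of many members depended on the cell line measured. The lowest and highest of the 3 window means were over 25 points apart for 14 of the 31 members (45.2%), against 22.4% of all windows classed in the 3 lines. All 3 pairs of genes that share a window are among the 14, which raises the share of members. The median span was 23.1 points for members and 9.23 points for all windows. These spans compare all covered CpGs of each line, which are not the same CpGs. By this measure ZDBF2 had the widest span, 72.6 points, and PHLDA2 the narrowest, 0.962 points, while over CpGs shared by a pair of lines ZDBF2 differed by at most 57.5 points and MAGEL2 by 67.5.

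Of the 13 members whose own promoter is known to carry a maternal mark, 9 were classed in all 3 lines. KCNQ1OT1, an antisense RNA that silences its neighbours on chromosome 11, read 48.9% ± 22.9 in HCT15 (SD, n = 78 CpGs), 97.4% ± 6.7 in DU145 (n = 71) and 44.2% ± 24.0 in PC3 (n = 80) in the window chr11:2719233-2723233. In HCT15, 50 of its CpGs were intermediate, in PC3 44, and in DU145 1, where 69 were at least 80% methylated. DU145 thus stood alone, with a difference of 52.7 points from HCT15 and 53.7 from PC3 over the shared CpGs.

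PEG3 and ZIM2, zinc finger genes that start 3 bp apart, read 98.0% ± 3.7 in HCT15 (SD, n = 18 CpGs), 51.2% ± 26.8 in DU145 (n = 13) and 41.7% ± 28.6 in PC3 (n = 32) at chr19:57350096-57354096. PEG10, a gene derived from a retrotransposon, and its divergent neighbour SGCE, which encodes epsilon-sarcoglycan, followed the same order. PEG10 read 89.4% ± 18.1 in HCT15, 37.9% ± 30 in DU145 and 23.7% ± 22.8 in PC3 (SD, n = 17 CpGs each) at chr7:94283637-94287637. HCT15 was the high line in both of these windows, and in DU145 10 of the 17 PEG10 CpGs were intermediate, in PC3 3.

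FAM50B read 96.5% ± 5.2 in HCT15, 82.8% ± 23.7 in DU145 and 74.4% ± 34.5 in PC3 (SD, n = 67, 50 and 69 CpGs). Within 500 bp of its start the same lines read 96.5%, 50.8% and 30.3%. The wide window of FAM50B therefore averaged a narrow zone that separated the lines with flanks that were methylated in each. NNAT, a neuronal membrane protein gene, was high in all 3 lines (96.1%, 98.8% and 97.7% in HCT15, DU145 and PC3), with 1 CpG intermediate in HCT15 and 0 in the others.

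MEST, PLAGL1, SNRPN and L3MBTL1 have gene 5′ ends that lie between 5914 and 131350 bp from the start of their canonical transcript, so that their windows did not cover the canonical promoter. The PLAGL1 window was low in each line (13.1%, 11.5% and 12.5% in HCT15, DU145 and PC3). SNRPN, L3MBTL1, DIRAS3 and NAP1L5 had fewer than 5 covered CpGs in at least 1 line. DIRAS3, a Ras-like gene, was classed only in PC3 (76.7%, 6 CpGs), and NAP1L5 had at most 2 covered CpGs in any line.

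Of the 7 members whose control region lies at an inner promoter or intron, GRB10, INPP5F, IGF2R and TRAPPC9 were low in all 3 lines, with window means from 8.7 to 23.6%. These windows lie at the gene 5′ ends and not at the inner control regions. These genes encode an adaptor of growth factor receptors, an inositol phosphatase, the receptor that clears insulin-like growth factor 2 and a subunit of a vesicle tethering complex. GNAS, the stimulatory G protein alpha subunit, read 91.4% ± 10.9 in HCT15 (SD, n = 79 CpGs), 67.9% ± 22.9 in DU145 (n = 67) and 61.3% ± 24.5 in PC3 (n = 83) at its outermost promoter. Intermediate were 4 of these CpGs in HCT15, 31 in DU145 and 45 in PC3. ZNF597 and its divergent neighbour NAA60 read 69.3% ± 25.7 in HCT15, 99.0% ± 2.5 in DU145 and 84.5% ± 22.8 in PC3 (SD, n = 9, 10 and 20 CpGs).

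Among the 7 members with a paternal mark or one set after fertilisation, HCT15 and DU145 were over 25 points above PC3 at 2 neighbouring genes of chromosome 15, MAGEL2 and NDN. MAGEL2, an intronless gene of the Prader-Willi region, read 91.9% ± 12.3 in HCT15 (SD, n = 35 CpGs), 94.4% ± 7.3 in DU145 (n = 30) and 28.6% ± 25.5 in PC3 (n = 41) at chr15:23891014-23895014. NDN, which encodes necdin, read 80.4%, 84.7% and 45.4% over 9 CpGs, and their neighbour MKRN3 83.3%, 78.9% and 58.8% over 15, 10 and 19 CpGs. Over shared CpGs, MKRN3 in PC3 was 18.1 points below HCT15 and 9.8 below DU145, under the limit of 25 points. UBE3A, a ubiquitin ligase gene of the same region that is silenced from a distance, was low in all 3 lines (9.9%, 8.0% and 8.3%).

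ZDBF2 read 90.6% ± 10.6 in HCT15 (SD, n = 13 CpGs), 18.0% ± 29.2 in DU145 (n = 28) and 63.8% ± 18.4 in PC3 (n = 42). Over the 11 CpGs that HCT15 shared with each other line, it read 91.6%, DU145 34.1% and PC3 69.7%. In PC3, 25 of its 42 CpGs were intermediate. MEG3, a long non-coding RNA, was high in each line (81.9%, 92.6% and 72.3%), and so was IGF2, the growth factor gene (76.9%, 83.4% and 77.0%). The IGF2 gene 5′ end lies 19002 bp from the start of its canonical transcript, so its window did not cover the canonical promoter, given below. The H19 window read 45.8% ± 31.6, 68.9% ± 33.8 and 49.5% ± 35.5 (SD, n = 13, 10 and 21 CpGs). Over the 10 CpGs that DU145 shared with each other line, it was 34.7 points above HCT15 and 35.9 points above PC3. The H19 window (chr11:2023782-2027782) is centred on the outermost annotated start and does not cover the start shared by 7 transcripts, chr11:2019072. In the stretch upstream of that shared start, given below, DU145 was instead the lowest line.

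Of the 9 members governed from a distance, SLC22A18, a transporter gene, was intermediate in all 3 lines (65.0%, 53.9% and 53.6% over 5, 9 and 9 CpGs), and DDC was classed only in PC3. In HCT15, 3 of the 5 SLC22A18 CpGs were at least 80% methylated, 1 at most 20% and 1 intermediate. Their pooled reads gave 37.8%. CDKN1C, a cyclin-dependent kinase inhibitor, PHLDA2, UBE3A and BLCAP were low in all 3 lines, between 8.0 and 27.0%. WT1, a transcription factor gene, read 92.2% ± 14.3 in HCT15 (SD, n = 87 CpGs), 71.5% ± 24.0 in DU145 (n = 62) and 32.6% ± 35.8 in PC3 (n = 89). DLK1, a Notch ligand homologue that is imprinted together with MEG3, read 88.2%, 56.1% and 62.7%, and KCNK9 read 68.2%, 46.5% and 36.4%. HCT15 was the highest line at all 3 of these genes.

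Counted over pairs of lines, differences over 25 points leaned towards HCT15 among members, as they did over all gene windows. HCT15 exceeded DU145 at 6 of 30 members with enough shared CpGs (9.35% of all windows) and was exceeded at 4 (background 2.83%), namely H19, KCNQ1OT1, ZNF597 and NAA60. Against PC3, HCT15 was higher at 9 of 30 (background 12.1%) and lower at 0 (background 1.77%). DU145 was higher than PC3 at 6 of 32 (background 8.44%) and lower at 1, ZDBF2 (background 2.63%). The 3 shared windows enter these counts as 2 genes each, and with 1 library per line the counts carry no test. Centred on the start of the canonical transcript, a choice made after seeing the data, HCT15 exceeded DU145 at 10 of 33 members. The share over all genes was not computed for this centring, so the backgrounds above do not apply to it.

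Single CpGs were compared between libraries by a two-sided Fisher's exact test on their reads, which compares 2 libraries and not 2 cell lines. A CpG was called at an adjusted p under 0.05, corrected over all CpGs of the genome, and a difference of at least 25 points. Of 1122 member CpGs, 162 (14.4%) were higher in HCT15 than in DU145, against 7.18% of all CpGs, and 80 (7.13%) were lower, against 6.95%. Against PC3, 270 of 1278 (21.1%) were higher in HCT15, against 11.3%, and 19 (1.49%) were lower, against 3.80%. Between DU145 and PC3, 185 of 1271 (14.6%) were higher in DU145, against 12.1%, and 60 (4.72%) lower, against 3.38%.

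A few members held most of these CpGs. Of the 80 CpGs lower in HCT15 than in DU145, 63 belonged to KCNQ1OT1, 63 of the 70 it had in both libraries. In the comparison of DU145 with PC3, KCNQ1OT1 held 56 of the 185 CpGs higher in DU145, MAGEL2 29 (of 30 measured) and WT1 27 (of 52), while ZDBF2 held 22 of the 60 lower ones and CDKN1C 21. Between HCT15 and PC3, KCNK9 (51), WT1 (50), GNAS (38) and MAGEL2 (28) had the most CpGs higher in HCT15. IGF2R had 2 CpGs called in HCT15 against DU145, 2 in HCT15 against PC3 and 0 in DU145 against PC3, and BLCAP had 0 called in any pair.

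The windows around gene 5′ ends miss control regions at inner promoters, so 500 bp either side of every annotated transcript start of a member were also read, merged where they overlapped. Of 168 such regions, 71 in 34 genes had at least 5 covered CpGs in all 3 lines. Regions were merged only within a gene, here and over all genes. Members that share a window can therefore enter the same CpGs under both genes. Several regions can also come from the same gene, so the regions are not independent and the counts carry no test. Intermediate were 17 regions in HCT15 (23.9%), 18 in DU145 (25.4%) and 30 in PC3 (42.3%), against 9.92%, 10.8% and 12.8% of the same kind of region over all genes. Intermediate in all 3 lines were 5 of the 71 (7.04%), against 2.17% of all regions, in H19, IGF2, GRB10, GNAS and L3MBTL1. Of the 39 classed regions that did not overlap a gene window, 13, 8 and 18 were intermediate in HCT15, DU145 and PC3.

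The region just upstream of the canonical promoter of GNAS (chr20:57462968-57465436) was the fullest of these. It read 53.5% in HCT15 (59 CpGs), 61.8% in DU145 (59) and 53.7% in PC3 (74), with 45, 40 and 64 of the CpGs intermediate. The neighbouring canonical promoter, chr20:57465857-57468655, was low at 8.6%, 8.2% and 9.0%. At the canonical GRB10 promoter (chr7:50848627-50851107), 36 CpGs averaged 47.3% in HCT15, 68.8% in DU145 and 38.8% in PC3. Of these CpGs 31, 22 and 13 were intermediate. The L3MBTL1 region at chr20:42142095-42144989 read 33.6%, 68.0% and 42.1% over 26, 16 and 26 CpGs.

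Other control regions departed from an intermediate level in 1 or more lines. The canonical promoter of PLAGL1, a zinc finger transcription factor gene (chr6:144327984-144330460), read 45.4% in HCT15, where 71 of 86 CpGs were intermediate, 12.0% in DU145 (13 of 63) and 10.8% in PC3 (13 of 73). In DU145 and PC3 several of these intermediate CpGs stood alone among CpGs near 0%. In DU145, for instance, CpGs at 54.7% and 56.5% lay next to CpGs at 0%. The cause of this pattern was not tested. The canonical promoter of MEST, a hydrolase gene (chr7:130130670-130132813), read 98.2%, 91.7% and 66.6%, and only in PC3 were many of its 72 CpGs intermediate (0, 3 and 34). The canonical SNRPN promoter (chr15:25199582-25200652) read 87.5%, 55.6% and 65.2% over 16, 7 and 19 CpGs. The internal INPP5F promoter (chr10:121577698-121579519) was at 97.6%, 98.4% and 98.7%.

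On chromosome 11, the stretch 2 to 5 kb upstream of the most shared annotated H19 start (7 transcripts) (chr11:2021072-2024072), where the H19 control region is known to lie, read 43.0% in HCT15 (29 CpGs), 21.1% in DU145 (20) and 50.9% in PC3 (28). Intermediate were 13, 5 and 19 of these CpGs. DU145 thus read low here and at a canonical IGF2 promoter (chr11:2159704-2161119; 38.4%, 12.9% and 15.3%), and high at KCNQ1OT1 on the same chromosome arm.

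**Figure D2:**
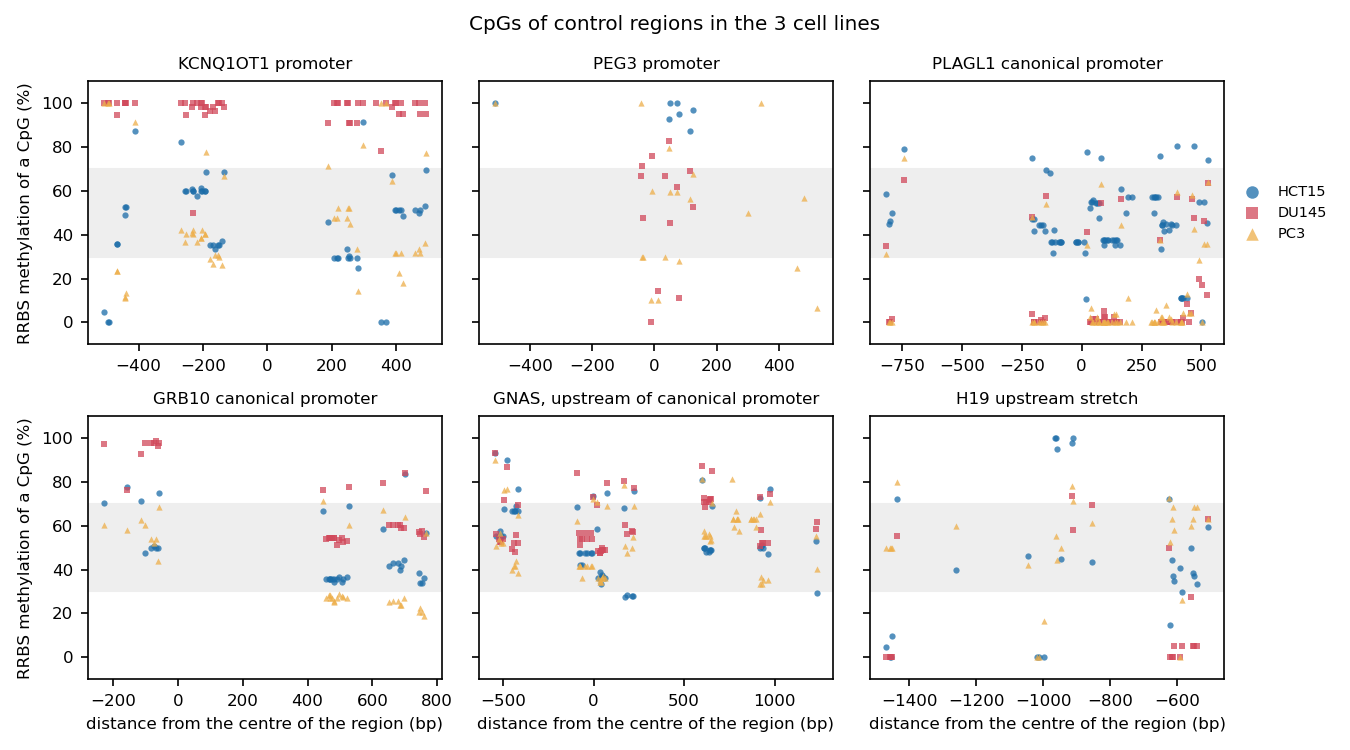
RRBS methylation (%) of every CpG with coverage of at least 10 in 6 control regions, by distance (bp) from the centre of the region, in HCT15 (circles), DU145 (squares) and PC3 (triangles). The band marks 30 to 70%: most GNAS CpGs lie in it in all 3 lines (45 of 59, 40 of 59 and 64 of 74), while most CpGs lie outside it for KCNQ1OT1 in DU145, PEG3 in HCT15, PLAGL1 in DU145 and PC3, GRB10 in PC3 and H19 in HCT15 and DU145.

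Motifs of 2 proteins were counted in the windows, both strands included. TGCCGC is bound by ZFP57, a zinc finger protein that keeps imprints in the early embryo, when its CpG is methylated, and GGNGGCAG is part of the core of CTCF, the insulator protein that binds the unmethylated H19 control region. TGCCGC occurred in 32 of 36 member windows (88.9%), against 45.5% of all gene windows and 65.2% of those of protein-coding genes, with a median of 2, 0 and 1. The member windows also held more CpGs, a median of 162.5 against 60 in all windows and 127 in protein-coding ones. PEG3 had 11 matches, a number reached in 0.0301% of all windows, NNAT had 8, NAP1L5 had 7 and KCNQ1OT1 had 6, reached in 0.274%, 0.549% and 1.13%. GGNGGCAG occurred in 83.3% of member windows, 75.7% of all windows and 82.9% of protein-coding ones.

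RRBS covered few CpGs inside TGCCGC, none of them in the PEG3 window. Over the 33 distinct windows, the CpGs inside the motif averaged 36.7% in HCT15 (14 CpGs, against 51.0% over 1310 others), 47.6% in DU145 (14, against 44.2% over 1283) and 43.1% in PC3 (21, against 37.1% over 1584). Of the windows with both kinds of CpG, the CpGs inside the motif averaged higher in 1 of 10, 3 of 11 and 4 of 13. In the H19 stretch, GGNGGCAG matched 5 times, and 2 of these places had covered CpGs within 10 bases of the match. They are shown with the match in capitals (as CTGCCNCC, its other strand), which here also holds TGCCGC, at chr11:2021594-2021621 and chr11:2022000-2022027.
H19 match 1: tgagcctgcaCTGCCGCCgcgcagccac
H19 match 2: tgagcctgcaCTGCCGCCacgcggccac

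At match 1 the covered CpGs averaged 98.4% in HCT15 (3 CpGs) and 50% in PC3 (2), and DU145 had none covered. At match 2, which lies in the H19 stretch printed above, 3 CpGs averaged 41.8% in HCT15, 12.6% in DU145 and 63.9% in PC3.

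In MBD-seq, all 5 kits gave more fragments at the members than uniform placement of each library over the genome would. The pooled count over the member windows exceeded uniform placement by a factor of 14.5 ± 1.6 with MethylCollector and 13.5 ± 3.7 with MethylMagnet (SD, n = 3 cell lines). The factor was 7.9 ± 2.5 with the Ultra version of MethylCollector, 4.15 ± 0.18 with MethylCap and 2.24 ± 0.37 with MethylMiner (SD, n = 3 cell lines). Over all gene windows the libraries of these kits, in that order, stood at 2.75 to 3.42, 2.42 to 3.85, 2.12 to 2.58, 1.74 to 1.87 and 1.37 to 1.49 times. The depth behind these folds differed widely: the member windows held 742, 334 and 292 fragments in the MethylMiner libraries of HCT15, DU145 and PC3, 881, 171 and 211 in those of MethylCap, but 54, 7 and 125 in those of MethylMagnet. The MethylCollector libraries held 215, 24 and 57, and those of MethylCollector Ultra 366, 9 and 226. Intervals given for fragments are exact Poisson intervals at 95% and cover counting error only. The fragments of the 3 shared windows enter the pooled counts for both genes of a pair. The intervals take no account of this and are too narrow where such genes are pooled.

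When the members were split by their RRBS class in the same line, the pooled fold of 4 kits was lower at low windows than at intermediate or high ones in each line, although the DU145 libraries of MethylMagnet, MethylCollector and its Ultra version held only 7, 24 and 9 member fragments. For MethylCap, low members stood at 1.46 times uniform placement in HCT15 (83 fragments, 10 genes), intermediate members at 5.90 times (202 fragments, 6 genes) and high members at 6.44 times (551 fragments, 15 genes). In DU145 these values were 1.33, 4.40 and 6.44, and in PC3 1.77, 6.10 and 5.02. Members intermediate thus lay nearer to the high than to the low class with this kit in the 3 lines. MethylCollector in PC3 gave 3.09, 17.2 and 22.1 (5, 30 and 22 fragments), and MethylMagnet in the same line 4.59, 11.8 and 14.9. MethylMiner gave 2.05, 2.15 and 2.03 in HCT15, 1.79, 3.02 and 2.03 in DU145, and 2.46, 3.21 and 2.16 in PC3, with no rise from intermediate to high. Over all gene windows it did not rise either, with 1.88 and 1.74 in HCT15, 2.13 and 1.83 in DU145, and 2.07 and 1.89 in PC3.

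**Figure D3:**
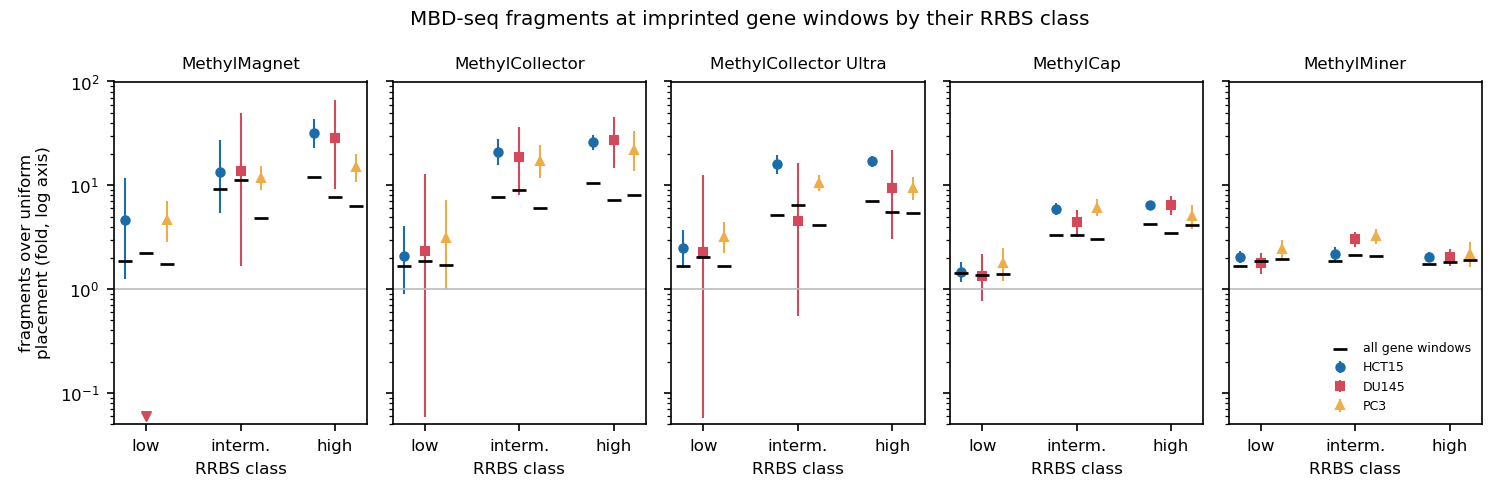
MBD-seq fragments at imprinted gene windows relative to uniform placement (fold, log axis), by the RRBS class of the window in the same cell line, for 5 kits. Points are pooled over the members of a class in 1 library with exact Poisson 95% intervals, a triangle at the bottom marks a count of 0, and black bars give the mean over all gene windows of the class: with MethylCap in HCT15 the members rise from 1.46 (low) to 5.90 (intermediate), with MethylMiner from 2.05 to 2.15. Fragments of a window shared by a pair of members are counted for both genes, which the intervals do not allow for.

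The 26 differences over 25 points between lines were looked up in the MBD-seq libraries of the same pair. For MethylCap the line higher by RRBS also had the higher fold in 8 of 10 members for HCT15 and DU145, 5 of 9 for HCT15 and PC3 and 4 of 7 for DU145 and PC3. Over all gene windows that differed by RRBS, the shares were 78.0%, 79.7% and 73.7%. For MethylMiner the same direction was seen in 2 of 10, 1 of 9 and 1 of 7 members, against 42.9%, 41.5% and 50.4% of all such windows. The pairs share libraries and 3 pairs of members share a window, so the counts are given as a description.

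At KCNQ1OT1, the 15 libraries gave these fragments in HCT15, DU145 and PC3: 2, 2 and 5 with MethylMagnet, 19, 1 and 2 with MethylCollector, 19, 0 and 6 with MethylCollector Ultra, 46, 12 and 7 with MethylCap and 37, 6 and 9 with MethylMiner. Relative to uniform placement MethylCap stood at 8.06, 9.97 and 5.02 and MethylMiner at 3.44, 1.39 and 2.93. DU145, the line methylated at nearly all CpGs, was thus the highest for MethylCap and the lowest for MethylMiner, but with 12 and 6 fragments. The 0 of MethylCollector Ultra in DU145 allows up to 67.8 times uniform placement at 3 fragments and says nothing about methylation.

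At MAGEL2, MethylCap had 42, 13 and 10 fragments in HCT15, DU145 and PC3, or 7.36, 10.8 and 7.18 times uniform placement, although RRBS read 91.9%, 94.4% and 28.6%. MethylCollector had 15, 5 and 1 fragments there. NNAT, high in all 3 lines, had 60, 16 and 9 fragments with MethylCap, and BLCAP, low in all 3, had 1, 0 and 0. MethylMiner had 27, 11 and 9 fragments at NNAT and 27, 11 and 8 at BLCAP. MethylMiner thus gave nearly the same counts at a window high by RRBS and at one low by RRBS.

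MethylCap and MethylMiner, the kits with the most fragments, were compared over gene windows with limma on log2(fragments per 1000000 of the library + 0.5), with the cell line as a block, over windows with a mean of at least 5 fragments. Of 32965 windows, 4117 (12.5%) were higher with MethylCap and 1144 (3.47%) lower at an adjusted p under 0.05. All but SNRPN, DDC and L3MBTL1 passed the filter on low values, and of these 33 members 13 were higher and 2 lower. Their median log2 difference was 0.86, against 0.18 over all windows tested.

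The members higher with MethylCap were NNAT (log2 difference 1.74 ± 0.33 SE, adjusted p = 0.0011 by limma), FAM50B, KCNK9, MAGEL2, KCNQ1OT1, DLK1, WT1, GNAS, MEG3, H19, PEG3, ZIM2 and IGF2, with differences down to 0.95. For KCNQ1OT1 it was 1.48 ± 0.37 (SE, adjusted p = 0.0082 by limma). BLCAP (1, 0 and 0 MethylCap fragments) and PLAGL1 (0, 0 and 1) were lower, and the size of their fitted differences depends on the pseudocount: -2.88 for BLCAP with 0.5, -4.65 with 0.1 and -2.13 with 1. With so few MethylCap fragments, both passed the filter on low values only through MethylMiner. A lower value with MethylCap was thus partly built into their selection, and these calls are given as a description. MEST (-1.50 ± 0.66 SE, adjusted p = 0.12) and ZDBF2 (1.31 ± 0.53 SE, adjusted p = 0.093) did not pass the threshold in limma.

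Of the 13 higher members, 5 (MAGEL2, GNAS, NNAT, FAM50B and KCNK9) passed in each of the 3 fits that left out 1 cell line, and 8 passed without the block. KCNQ1OT1 lost its call without DU145 (log2 difference 0.93, adjusted p = 0.098 by limma), as did IGF2 and PLAGL1. H19, IGF2, PEG3, ZIM2 and WT1 lost theirs without HCT15, where BLCAP and PLAGL1 fell under the filter, and H19, MEG3 and DLK1 without PC3. In a fit over all 15 libraries, with windows chosen by the same filter, 0 of the 13 passed and PLAGL1 and BLCAP did. There, 4 of 33 members and 2791 of 32965 windows had an unadjusted p under 0.05. Without the filter on low values no window passed, though 17 of 36 members and 18353 of all 59776 windows had an unadjusted p under 0.05.

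**Figure D4:**
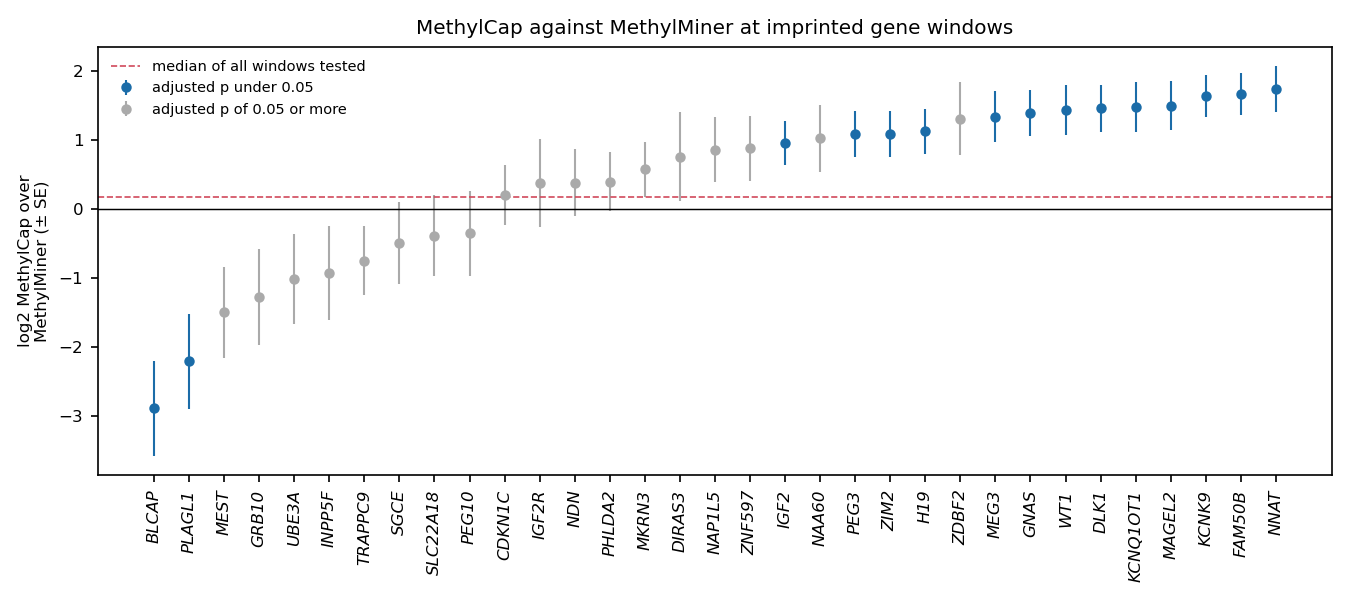
Fitted log2 difference of MethylCap over MethylMiner (fragments per 1000000 of the library + 0.5, limma, ± SE) at the 33 imprinted gene windows that passed the filter, ordered by size. Blue points had an adjusted p under 0.05, 13 above and 2 below zero, and the dashed line is the median of all windows tested, 0.18. The 2 below zero passed the filter only through their MethylMiner fragments.

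A second list of 39 imprinted genes or their neighbours that are no members was read in the same way. Of these, 35 matched an annotated gene and 30 were classed in each line. Low, intermediate and high were 9, 7 and 14 in HCT15, 11, 7 and 12 in DU145, and 10, 11 and 9 in PC3, and over all gene windows, too, PC3 had the largest share of intermediate ones (24.8%). Some lie on members: MIMT1 and PEG3, HYMAI and the canonical PLAGL1 promoter, MESTIT1 and the canonical MEST promoter, and WT1-AS and WT1 share most of their CpGs. Of the others, and chosen after their values were seen, ATP10A read 95.2%, 19.3% and 32.0% in HCT15, DU145 and PC3, KLF14 34.7%, 62.7% and 91.7%, and the calcitonin receptor gene CALCR 83.2%, 16.7% and 23.5%. AIRN, whose start (chr6:160428696) lies on the chromosome of IGF2R (start chr6:160390114), read 97.8%, 99.3% and 99.2% over 22, 15 and 15 CpGs.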

How the data were processed

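Genomic DNA of HCT15, DU145 and PC3 was assayed by RRBS and by MBD-seq with 5 kits (18 samples). The RRBS files deposited by the authors give 2 counts for each CpG, methylated reads and total reads, strands combined, at a coverage of at least 6; the aligner is not given in the sources used here. For MBD-seq, the deposited signal was the depth of non-duplicate fragments, mapped by the authors with Bowtie (version not given) to hg19. Fragments over a window were the depth at its first base plus all later rises.

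The 36 members and all gene lists were chosen with earlier results of these data known. Windows of 2 kb either side of the GENCODE v44lift37 gene 5′ end were classed from CpGs with coverage of at least 10, low under 30% and high above 70%, with at least 5 CpGs. All members were named. The background was all annotated genes on chromosomes 1 to 21, since the PC3 RRBS file held no more. The H19 stretch was measured from the most shared annotated 5′ end (7 transcripts), and not, as planned, from the curated one, which lies upstream. CpGs were compared by Fisher's exact test with Benjamini-Hochberg adjustment, both in custom code. The test was checked on simulated CpGs against that of scipy 1.17.1. Kits were compared by limma 3.58.1 in R 4.3.3 with cell line as block, since same-numbered libraries are the same line (their deviations correlated at 0.20, 0.17 and 0.21). Libraries of 1 group come from different lines, and nothing else is replicated, so p-values measure the spread between these libraries.

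Tested on simulated data, the Fisher test recovered 45.5% of 200 CpGs changed by 50 points among 100000 at real coverages, so CpGs not called may differ. The limma fit recovered 83% of windows raised 4-fold among 32965. Coverage, window width, CpG number, class limits, pseudocount, filter, block and left-out cell lines were varied.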

Additional observations from a re-analysis of the deposited data

How the results depend on the processing

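Limits: each cell line had 1 RRBS library, RRBS reads only CpGs near restriction sites, and low coverage and small fragment numbers (7 to 54 member fragments in the sparsest libraries) limit what could be detected. Copy number and allele were not measured. The window depends on the annotated gene 5′ end.

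The number of members intermediate moved with the class limits: limits of 40 to 60% left 2 for HCT15, 5 for DU145 and 9 for PC3, and limits of 20 to 80% gave 25 for PC3. Asking for 10 CpGs left 3 in HCT15, and 2 members lower in HCT15 than in DU145. Members lower in HCT15 than in PC3 numbered 2 with windows of 1 kb and 2 with pooled reads, against 0. With a limit of 40 points, 1 member was lower in HCT15 than in DU145 and 3 were higher in DU145 than in PC3. Centred on the canonical transcript, an alternative chosen after seeing the data, 10 members were higher in HCT15 than in DU145, with no share over all genes computed. With this centring, 2 called differences turned: the GNAS difference HCT15 minus PC3 to -0.64 points and the L3MBTL1 difference DU145 minus PC3 to -13.4 points. Within 1 kb, 98 member CpGs were higher in HCT15 than in DU145, and at a coverage of 20, 11 were lower in HCT15 than in PC3. The cause of these changes was not tested, apart from the fewer CpGs or windows that the stricter settings leave.

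For MethylCap against MethylMiner, gene windows higher and lower numbered 1713 and 476 with no replicate block (members 8 and 1), 0 and 0 with no filter (members 0 and 0), 1509 and 2 with a mean of at least 20 fragments (members 6 and 0, of 6 left), and 12 higher with all 15 libraries (members 0). With a pseudocount of 0.1, 226 windows and 1 member were lower. Leaving out a cell line gave 2179 to 4238 windows higher and 116 to 1366 lower, and 8 to 11 members higher and 0 to 2 lower, with 2179, 116, 8 and 0 without HCT15. Without a cell line, the log2 difference of members that had not passed ranged across 0 at CDKN1C (-0.18 to 0.90), SLC22A18 (-1.36 to 0.91), PEG10 (-1.12 to 0.28) and SGCE (-1.34 to 0.16), none passing the threshold. The fold over uniform placement rose with windows of 1 kb to 20.6 (MethylMagnet), 19.9 (MethylCollector) and 5.23 (MethylCap), and relative to the MethylMiner library of the same line it was 6.29, 6.68, 3.66 (MethylCollector Ultra) and 1.89 (MethylCap). The other 105 recomputed counts and folds moved by less than 1.5 times or less than the SD between lines. Values of single members were counted apart and were not all stable. Over all settings, 193 recomputed window means were classed as moved and 371 as the same. Of the called differences between lines, 47 were classed as moved, 2 as reversed and 93 as the same. Of the log2 kit differences, 47 were classed as weaker, 5 as reversed and 210 as the same.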
